A study of Mus musculus with 6 samples.

Results

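The genes encoding the microtubule motors of the cell were examined in the medial ganglionic eminence (MGE) of E13.5 mouse embryos. They were the kinesin heavy chains (symbols beginning with Kif or Kifc and a number), the kinesin light chains Klc1 to Klc4, the chains of cytoplasmic dynein (Dync1 and Dync2) and the dynactin subunits Dctn1 to Dctn6. Of the 17794 genes measured, 56 carried such a symbol, and the 53 with a mean of at least 50 reads over the 6 libraries were kept. These comprised 13 mitotic kinesins, 15 transport kinesins, 9 other kinesins, 3 kinesin light chains, 7 dynein chains and 6 dynactin subunits. Kif19a (0 to 65 reads), Kif9 (14 to 49) and Klc3 (12 to 91) fell under the minimum. Klc3 lay just outside it with a mean of 44.0 reads and Kif17 just inside it with 55.0.

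RNA was sequenced from 3 control pools and 3 pools of double mutants (dmut). Each pool held the MGEs of 3 embryos and is labelled as a biological replicate. Control embryos were Rac1+/+;Rac3+/+ and dmut embryos Rac1fl/fl;Rac3-/-. Both groups also carried Nkx2.1Tg(Cre) and a heterozygous R26R-YFP allele, so the controls shared the Cre and the reporter. Rac1 and Rac3 are small GTPases that control the actin cytoskeleton. The floxed Rac1 is removed only in cells in which the Nkx2.1 transgene has driven Cre, whereas Rac3 is missing from all cells of the embryo. The tissue was taken whole, so cells without recombination were included.

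Kinesins walk along microtubules by hydrolysing ATP, most of them towards the plus end, and cytoplasmic dynein walks towards the minus end with dynactin as its activator. In dividing progenitors one set of kinesins builds the spindle, moves chromosomes and completes cytokinesis. In postmitotic neurons another set carries vesicles, mitochondria and mRNA into axons and dendrites, and dynein carries cargo back and helps to pull the nucleus forward during migration. The MGE at this stage holds both kinds of cell: cycling progenitors and newborn interneurons that leave for the cortex.

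Libraries held 31881697 to 34612095 total gene reads in control and 26766556 to 30363369 in dmut. Rac3 had 728, 647 and 532 reads in control, 16 in dmut replicate 1, and was listed at 0 (at most 9 reads) in the other dmut libraries, and it fell in dmut (edgeR quasi-likelihood test, Benjamini-Hochberg adjusted p = 0.0413). Rac1 differed by -0.13 on the log2 scale (SE 0.10, adjusted p = 0.525), and reads counted over the whole gene do not report on the floxed part. The MGE marker Nkx2-1 stood at 252 to 307 CPM in control and 253 to 285 in dmut. CPM here are reads scaled to a fixed library total after TMM correction for composition. The sums over marker lists in this paragraph are the exception, as they were scaled to library total without TMM. Dmut replicate 2 stood apart in markers of cortical excitatory neurons: the median of the 13 tested was 0.90 above the mean of the controls on the log2 scale there, but -0.90 and -0.95 in the other dmut libraries. Of the 14 listed, 0 to 4 were at 0 in a library, and their summed level was 329 to 364 CPM in control and 293 to 377 in dmut. No marker of these or the other cell types listed passed the test. All 10 microglia markers had positive log2 folds (median 0.47), with 82.3 to 100 CPM summed in control and 96.3 to 118 in dmut. All 10 endothelial markers were positive too (median 0.24), with 224 to 239 and 206 to 262 CPM. The TMM factors were 1.05 to 1.08 in control and 0.909 to 0.979 in dmut. TMM would therefore lower the summed levels in control and raise them in dmut, so whether the groups overlap can depend on the scale. Of 10 erythroid markers 9 were tested, and their median log2 difference from the control mean was 0.61, -0.97 and -0.85 in the dmut libraries in replicate order. The part of these cells in the motor values was not tested. The titles carry dates: control replicate 1 stands alone on 23 March, control replicate 2 shares 29 March with dmut replicates 1 and 2, and replicate 3 of both groups has 4 May.

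The comparison of dmut with control asked whether loss of Rac1 and Rac3 went with altered expression of the motor genes. None of the 53 passed: edgeR called 0 at an adjusted p of 0.05, beside 0.482% of all 15960 genes tested (0.163% higher and 0.320% lower). At an unadjusted p under 0.05 there were 11 motor genes, 3 higher and 8 lower in dmut. They make up 20.8% of the list, against 21.3% of all genes, so the share of both directions together lies near that of all genes. In the 2 directions the shares were 5.66% against 11.1% for higher and 15.1% against 10.1% for lower. The background by direction depended on depth. Of the 3117 genes with at least as many reads as the median motor gene, 693 were higher and 179 lower at that p. The dmut and control libraries did not overlap in 14 motor genes, or 26.4% of the list against 28.5% of all genes. All dmut libraries lay above all controls in Dctn3, Dctn5, Dync1i2 and Kif3c (background 13.6%). They lay below all controls in Dync2h1, Kif15, Kif14, Kif24, Kif21a, Kif2a, Kif27, Kif13a, Kif1c and Kif16b (background 14.9%). Of the same 3117 genes, 832 had all dmut libraries above all controls and 251 had them below.

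Most of these genes were measured with narrow intervals. A mean of 1000 or more reads was reached by 39 of them, and the median standard error of their log2 folds was 0.131. The 95% confidence interval of the fold lay within a 2-fold difference in either direction in 49 of 53 genes, or 92.5%. Among all genes with at least as many reads as the median motor gene the share was also 92.5%. It was 81.9% among all genes with a mean of 50 or more reads and 67.7% among all genes tested. The exceptions were Kif17, Kifc2, Kif26b and Kif6, whose intervals do not exclude a larger difference. In 37 genes the interval lay within 1.5-fold. The fold farthest from 0 was that of Kif17, at -0.56 with an interval of -1.72 to 0.60. Of the Kif17 reads 25.9% to 59.3% matched no other place, and the lowest share of any motor gene was among them. In 8 motor genes this share was under 80% in all libraries, so their values are less certain. They were Kif17, Kif18b, Kif20a, Kif26b, Kifc5b, Klc4, Dctn3 and Dctn5. The tools and settings differed in their calls, among all genes as among the motors. By DESeq2 Kif3c and Dctn3 were higher (as were 5.76% of all genes) and Dync2h1 and Kif13a lower (4.49%). By limma-voom 0 of 53 passed (0.796% of all genes). With library size alone as scaling, 6 were lower, Dync2h1, Kif13a, Kif14, Kif1c, Kif24 and Kif2a (4.56% of all genes).

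**Figure D1:**
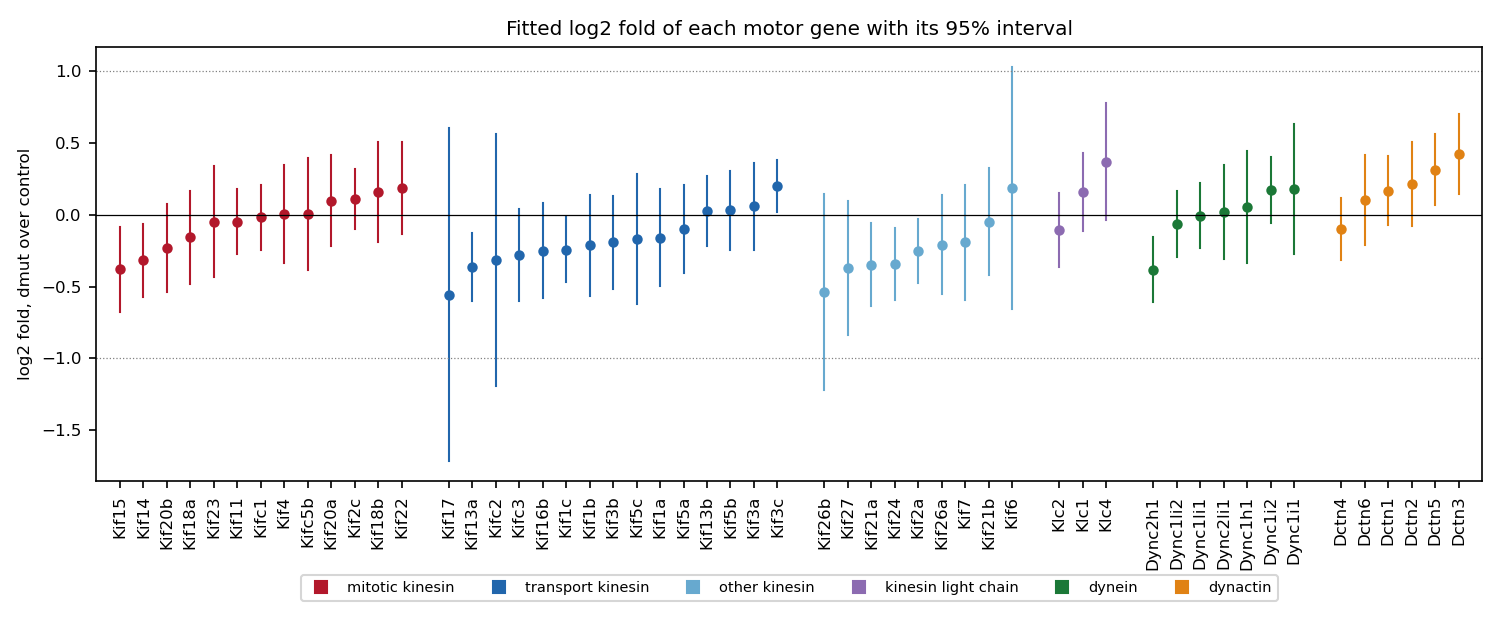
Log2 fold of dmut over control (y axis) for each of the 53 motor genes, grouped by role; points are edgeR estimates and bars their 95% confidence intervals. No gene passed the adjusted threshold, and the estimates run from -0.56 (Kif17) to 0.42 (Dctn3).

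Levels per exon length were compared in RPKM, the authors' reads per length and library total. The motor genes spanned a wide range, with 34 at a mean of 10 RPKM or more and 4 (Kif27, Kif26b, Kif6 and Kif17) below 1. Dctn2, which encodes dynamitin, ranked highest of the 53 in every library, at 92.4 ± 6.29 RPKM in control and 96.7 ± 15.9 in dmut (mean ± SD, n = 3 each, as throughout). The neuronal kinesin-1 heavy chain Kif5c was at 69.4 ± 9.63 and 53.7 ± 13.1, and its rank ran from 2 to 6. Klc1, the main light chain of kinesin-1, was at 55.0 ± 6.88 and 57.7 ± 6.54. The dynein heavy chain Dync1h1 was at 56.1 ± 10.8 and 50.7 ± 7.47 RPKM, and Dctn3 at 50.6 ± 4.15 and 59.9 ± 8.37. The chromokinesin Kif22 (46.8 ± 2.05 and 47.6 ± 9.39) and the spindle motor Kif11 (44.7 ± 4.14 and 36.7 ± 0.311) followed. Below Dctn2 the ranks in the 6 libraries overlapped: Dctn3 ran from 2 to 6, Klc1 from 3 to 4, Dync1h1 from 3 to 6, Kif22 from 4 to 7 and Kif11 from 6 to 9. At the low end Kif17, a dendritic transport kinesin, stood at 0.126 ± 0.0534 RPKM in control and 0.118 ± 0.0502 in dmut.

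**Figure D2:**
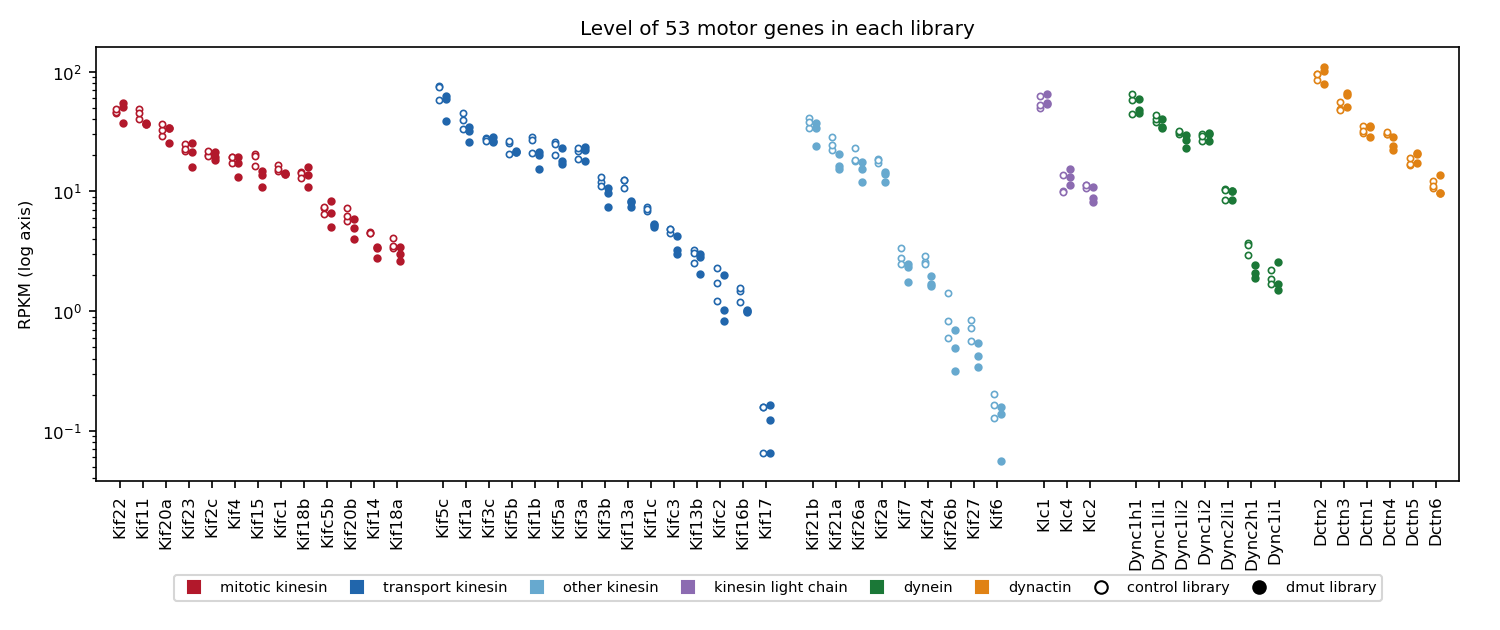
RPKM (y axis, log scale) of the 53 motor genes in each library, ordered by mean within their role; open symbols are the 3 control and filled symbols the 3 dmut libraries. Dctn2 leads in every library, and the spread between genes of a role is far wider than that between libraries of a gene.

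The mitotic kinesins are transcribed mainly in dividing cells, and the promoters of cell-cycle genes are known for a CCAAT box and a cell-cycle homology region (CHR) near the start site. RefSeq promoters (GRCm38.p6) were given for 41 of the 53 genes, 12 of them mitotic. The 250 bases before the start were searched on both strands for CCAAT and for the CHR core TTTGAA. Matches of the motifs that share a base were not excluded. Both motifs stood in 3 of 12 mitotic kinesin promoters (25.0%), in 2 of 34 promoters of the other motor genes (5.88%) and in 5.55% of all 32851 promoters. The CHR core alone was in 5 of 12 (41.7%), 4 of 34 (11.8%) and 15.99% of all. CCAAT was in 8 of 12 (66.7%), 13 of 34 (38.2%) and 33.8%. The 34 promoters belong to 29 genes, so some genes count more than once. Kifc1 and Kifc5b, which both hold CCAAT, are counted separately among the 12. A match of letters is a description of these windows only. The 100 bases before the start are printed on the gene's strand, with CCAAT (or ATTGG on the other strand) and TTTGAA (or TTCAAA) in capitals. Kif11, Kif15 and Kif22 are shown because a CHR core lies 17 to 19 bases before their start, and Kif18b because it holds CCAAT without it. Kifc1 and Kifc5b are shown as near-identical copies.
Kif11 (chr19:37376282-37376381, plus strand): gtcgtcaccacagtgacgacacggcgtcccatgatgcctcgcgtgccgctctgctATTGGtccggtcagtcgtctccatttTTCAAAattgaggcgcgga
Kif15 (chr9:122950981-122951080, plus strand): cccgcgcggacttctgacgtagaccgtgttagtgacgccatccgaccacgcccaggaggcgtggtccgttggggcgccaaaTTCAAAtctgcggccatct
Kif22 (chr7:127042421-127042520, minus strand): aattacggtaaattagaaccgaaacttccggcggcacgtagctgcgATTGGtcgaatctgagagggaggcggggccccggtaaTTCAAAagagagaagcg
Kif18b (chr11:102925125-102925224, minus strand): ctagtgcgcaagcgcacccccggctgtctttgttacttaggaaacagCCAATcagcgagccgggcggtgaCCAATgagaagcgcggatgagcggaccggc
Kifc1 (chr17:33890634-33890733, minus strand): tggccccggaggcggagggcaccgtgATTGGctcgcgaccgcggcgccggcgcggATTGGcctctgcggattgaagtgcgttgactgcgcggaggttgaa
Kifc5b (chr17:26916991-26917090, plus strand): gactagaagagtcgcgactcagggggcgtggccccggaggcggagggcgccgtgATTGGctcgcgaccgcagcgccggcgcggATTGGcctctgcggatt

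In the mitotic kinesins no fold passed, and the median of the 13 log2 folds was -0.02. The median was also -0.02 over all genes tested, but 0.09 over those with at least as many reads as the median motor gene. Kif15, a spindle kinesin that works beside Kif11, was at 83.1, 98.5 and 99.5 CPM in the control libraries and 78.0, 61.4 and 76.7 in dmut. All 3 dmut libraries were lower than all controls, with dmut replicate 2 the lowest (log2 fold -0.38, SE 0.13, unadjusted p = 0.0189, edgeR adjusted p = 0.150). Kif14, which acts in cytokinesis, was at 43.1, 40.9 and 43.6 CPM in control and 30.8, 38.3 and 33.2 in dmut. The groups again did not overlap, but here dmut replicate 2 was the nearest to control (log2 fold -0.32, SE 0.11, edgeR adjusted p = 0.158). Kif20b, another cytokinesis motor, was at 34.2, 41.4 and 37.4 CPM in control and 33.6, 27.4 and 35.1 in dmut, with overlap (-0.23, SE 0.13).

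The 2 most abundant mitotic kinesins differed little between groups. Kif11, the motor that pushes spindle poles apart, was at 195, 227 and 218 CPM in control and 217, 208 and 194 in dmut, and its interval of -0.28 to 0.18 bounds any difference closely. Kif22, which pushes chromosome arms outward, was at 91.6, 92.1 and 100 CPM in control. In dmut it was at 118, 86.4 and 119, above all controls in 2 libraries and below them in dmut replicate 2. Across the class, dmut replicate 1 was the highest dmut library in 8 of 13 mitotic kinesins and dmut replicate 2 the lowest in 9. Kif23, a subunit of centralspindlin, was at 100, 63.0 and 77.3 CPM in dmut against 79.99, 86.2 and 82.6 in control. The chromokinesin Kif4 was at 121, 82.3 and 101 CPM in dmut and 94.4 to 107 in control. Kif18b, which limits the length of astral microtubules, was at 64.7, 43.6 and 51.8 CPM in dmut and 45.1 to 50.1 in control. The dmut libraries were thus spread more widely than the controls in these 3 genes.

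The remaining mitotic kinesins had overlapping groups. Kif20a, which acts with the chromosomal passenger complex, had a log2 fold of 0.10 (SE 0.13), the depolymerase Kif2c 0.11 (SE 0.09) and the chromosome-aligning Kif18a -0.16 (SE 0.14). The minus-end motor Kifc1 was at 58.9, 50.3 and 54.5 CPM in control and 55.9, 54.0 and 51.7 in dmut. Its copy Kifc5b was at 22.4, 18.3 and 20.8 in control and 21.2, 16.2 and 24.4 in dmut. In an alignment of the 250 bases before their starts, 200 bases were identical and 22 mismatched, or 90.1% identity of the aligned bases. Of the Kifc5b reads 66.5% to 77.3% were unique to it, so reads could be split between the copies and either value is uncertain. The mitosis genes that are not motors, a list of 40 with 39 tested, had a median log2 fold of 0.14. Of these, 31 had positive and 8 negative folds, 0 passed, and 7 reached an unadjusted p under 0.05, all higher (11.1% of all genes tested were higher at that p). The kinases Plk1 (0.35, SE 0.08, edgeR adjusted p = 0.0856) and Cdk1 (0.44, SE 0.11, adjusted p = 0.0926) had the smallest p. Per dmut library, in replicate order, this list stood 0.24, 0.03 and 0.14 above the control mean on the log2 scale, and the mitotic kinesins at 0.05, -0.13 and -0.075. Dmut replicate 2 was the lowest in both lists. In bulk tissue, fewer cells of a type and less RNA per cell cannot be told apart.

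The transport kinesins had a median log2 fold of -0.19, with 11 of 15 folds negative, and none passed. Kif13a, a carrier of endosomal cargo, was at 76.4, 84.8 and 87.5 CPM in control and 70.7, 60.2 and 62.5 in dmut. Every dmut library was below every control (means 82.9 ± 5.79 and 64.5 ± 5.52, log2 fold -0.36, SE 0.10, unadjusted p = 0.00843, edgeR adjusted p = 0.109). Kif1c, which carries vesicles and mRNA, was at 51.0, 47.3 and 49.9 CPM in control and 44.0, 42.8 and 38.5 in dmut, again without overlap (-0.24, SE 0.10, adjusted p = 0.203 by edgeR). Kif16b, an early endosome motor, was at 11.1 to 12.8 CPM in control and 8.85 to 11.02 in dmut.

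Kif3c stood on the other side. This neuron-enriched kinesin-2 subunit was at 181, 178 and 174 CPM in control and 204, 205 and 203 in dmut, the tightest dmut group of the named genes (log2 fold 0.20, SE 0.08, unadjusted p = 0.0366, edgeR adjusted p = 0.202). The sign rested on the scaling: with library size alone the log2 fold was -0.0052, beside a median of -0.23 over all genes on that scale. Its partners Kif3a (0.06, SE 0.13) and Kif3b (-0.19, SE 0.14) had overlapping groups. Of the RPKM summed over the 3 motor subunits of kinesin-2, Kif3c made up 44.8% ± 2.23 in control and 47.0% ± 1.33 in dmut, and Kif3b 20.04% ± 1.38 and 16.1% ± 3.19.

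The kinesin-1 heavy chains Kif5a, Kif5b and Kif5c and the kinesin-3 members Kif1a and Kif1b, main axonal transporters, overlapped between groups. Kif5c was at 398, 508 and 519 CPM in control and 316, 507 and 446 in dmut, where dmut replicate 1 was far below the others (log2 fold -0.17, SE 0.19). Without dmut replicate 1 the log2 fold was 0.0031. Kif5c supplied 59.2% ± 0.301 of the summed Kif5 RPKM in control and 50.3%, 61.4% and 57.3% in the dmut libraries. The ubiquitous Kif5b took 27.7% in dmut replicate 1 against 20.03% to 21.04% in control. Kif5b itself had a log2 fold of 0.03 (SE 0.12) and Kif5a, the other neuronal form, -0.10 (SE 0.13). Kif1a, which carries synaptic vesicle precursors, was at 263, 354 and 316 CPM in control and 241, 298 and 297 in dmut (-0.16, SE 0.14). Kif1b, which carries mitochondria and vesicles, was at -0.21 (SE 0.15). Control replicate 1 was the lowest control in Kif5c and Kif1a, as in 32 of the 53 motor genes. The pan-neuronal genes, 20 tested, lay at -0.12, 0.01 and 0.09 in the control libraries and -0.02, 0.05 and 0.20 in dmut, on the scale of log2 differences from the control mean, with a median log2 fold of 0.15. The part of cell composition in the transport kinesins' values was not tested.

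**Figure D3:**
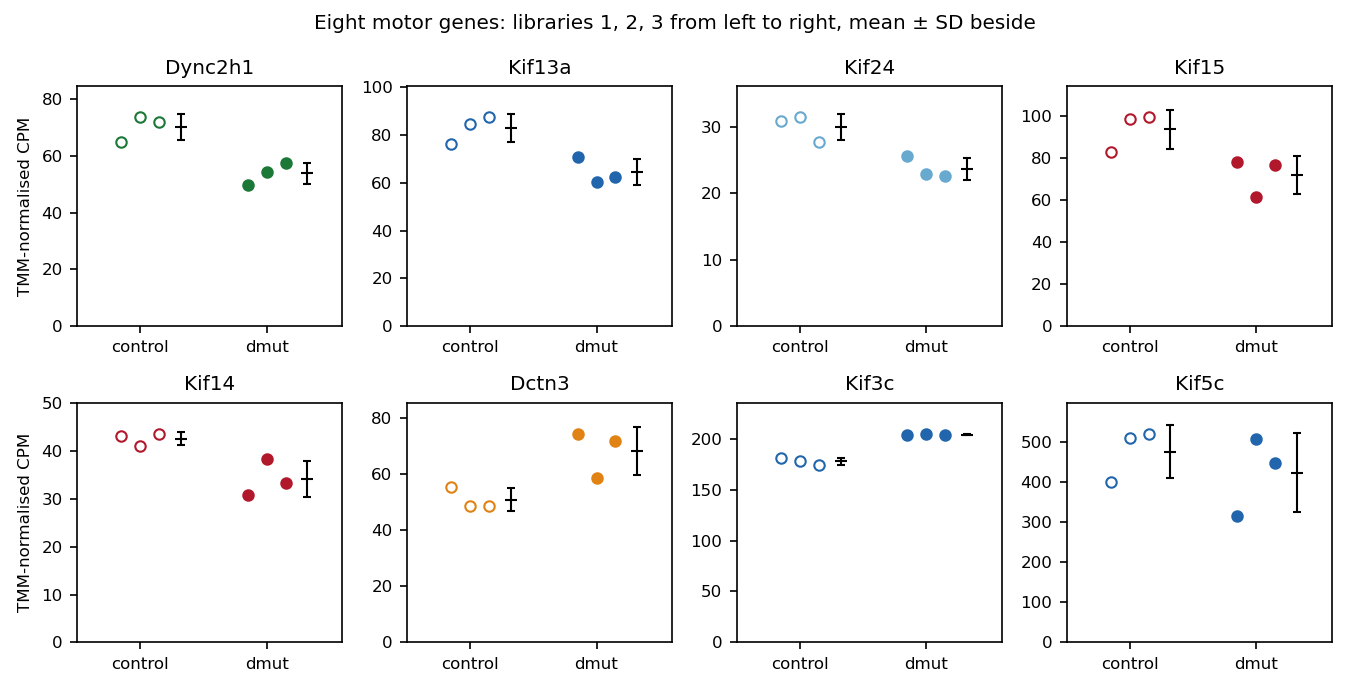
TMM-normalised CPM (y axis, from 0) in each library for 8 motor genes; open points are control and filled points dmut libraries, and the bars beside them mean ± SD over 3. Dync2h1, Kif13a, Kif24, Kif15 and Kif14 lie lower in all dmut libraries, Dctn3 and Kif3c higher, and Kif5c overlaps.

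Among the 9 other kinesins 8 folds were negative and the median was -0.25, with none past the threshold. Kif24, which restrains the outgrowth of cilia, was at 30.8, 31.4 and 27.7 CPM in control and 25.5, 22.8 and 22.5 in dmut. The groups did not overlap (log2 fold -0.34, SE 0.11, unadjusted p = 0.0132, edgeR adjusted p = 0.127). Kif21a, which limits microtubule growth at the cell cortex, was at 151, 157 and 191 CPM in control and 121, 126 and 144 in dmut (-0.35, SE 0.12, adjusted p = 0.165 by edgeR). The controls were spread by replicate 3, which was the highest, and still no dmut library reached them. Kif2a, a depolymerase that limits collateral axon branches, was at 122, 129 and 130 CPM in control and 98.3, 117 and 105 in dmut (-0.25, SE 0.10, adjusted p = 0.188 by edgeR).

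Kif21b, the paralogue of Kif21a and the most abundant gene of this class, was at 342, 416 and 391 CPM in control and 291, 405 and 416 in dmut (-0.05, SE 0.16). Its share of the RPKM of the pair was 60.0% ± 3.08 in control and 64.2% ± 3.13 in dmut. Kif7, which acts at the tip of the cilium in Hedgehog signalling, was at 13.7 ± 1.86 and 11.99 ± 1.99 CPM. Kif26a, which lacks ATPase activity, was at 131 ± 18.5 and 114 ± 17.0 CPM. Kif26b was at 6.497, 7.91 and 13.2 CPM in control and 5.66, 7.81 and 5.49 in dmut, so its fold of -0.54 (SE 0.29) leaned on control replicate 3. Kif27, at 3.87 to 5.11 CPM in control and 3.32 to 3.59 in dmut, did not overlap but was measured from a mean of 128 reads.

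The kinesin light chains bind cargo for kinesin-1. Klc1 was at 224, 231 and 280 CPM in control and 265, 261 and 294 in dmut (log2 fold 0.16, SE 0.12, adjusted p = 0.496 by edgeR). Klc4 was at 22.9, 22.4 and 32.5 CPM in control and 33.9, 29.2 and 37.2 in dmut (0.37, SE 0.17, adjusted p = 0.279 by edgeR), and control replicate 3 lay inside the dmut range. Klc2 was at 46.9, 42.6 and 46.0 and at 41.5, 37.7 and 46.7 CPM (-0.11, SE 0.11). Klc1 made up 71.1% ± 1.03 of the light chain RPKM in control and 72.0% ± 1.54 in dmut. The share of Klc2 was 14.5% ± 1.61 and 11.6% ± 0.462, without overlap between libraries.

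Among the dynein chains the lowest p of all motor genes belonged to Dync2h1, the heavy chain of the dynein that returns cargo from the tip of the cilium. It was at 65.1, 73.7 and 72.0 CPM in control and 49.9, 54.3 and 57.5 in dmut. All dmut libraries were below all controls (means 70.2 ± 4.56 and 53.9 ± 3.78, log2 fold -0.38, SE 0.10, unadjusted p = 0.00516, edgeR adjusted p = 0.0933). It was the only motor gene with an adjusted p under 0.1, a threshold at which 3.29% of all genes were lower. Its light intermediate chain Dync2li1 did not share the difference in level: it was at 13.8 ± 1.73 and 14.0 ± 1.19 CPM (0.02, SE 0.14). Of the RPKM of the 2 heavy chains together, Dync2h1 made up 6.25%, 5.98% and 5.14% in the control libraries and 4.02%, 4.14% and 3.93% in dmut.

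The chains of dynein-1, the motor of retrograde axonal transport, had log2 folds from -0.07 (Dync1li2) to 0.18 (Dync1i1). The dynein-1 heavy chain Dync1h1 was at 651, 852 and 982 CPM in control and 788, 837 and 954 in dmut (log2 fold 0.05, SE 0.17), and the control libraries spanned the dmut ones. Dync1i2, the widely expressed intermediate chain, was at 219, 246 and 244 CPM in control and 284, 249 and 266 in dmut (0.17, SE 0.10, adjusted p = 0.376 by edgeR), without overlap but with a gap of a few CPM. The neuronal intermediate chain Dync1i1 was far weaker, at 8.03, 6.52 and 8.16 and at 7.40, 7.74 and 10.6 CPM. Dync1i2 made up 93.7% ± 0.949 of the intermediate chain RPKM in control and 93.9% ± 1.52 in dmut. The light intermediate chain Dync1li1 was at 97.9, 101 and 113 CPM in control and 99.0, 101 and 111 in dmut, with an interval of -0.23 to 0.22. Dync1li2 was at -0.07 (SE 0.10).

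The dynein light chains, outside the symbols chosen, were read as the nearest neighbours. Of 9 listed, 8 were tested with a median log2 fold of 0.31, and 2 rose, a call made higher in 0.163% of all genes. Dynll1, the LC8 light chain that many proteins besides dynein bind, was at 213, 183 and 196 CPM in control and 370, 317 and 334 in dmut (0.79, SE 0.11, edgeR adjusted p = 0.0413). Dynlt1b (Tctex-type) was at 33.5, 30.4 and 46.4 CPM in control and 146, 93.9 and 116 in dmut (1.69, SE 0.21, adjusted p = 0.0413 by edgeR). Dynlt1b is 1 of 4 near-identical Dynlt1 copies on chromosome 17, and 6.94% to 13.3% of its reads were unique to it. Its copy Dynlt1a was at 45.2 ± 1.68 CPM in control and 42.9 ± 1.68 in dmut, and Dynlt1f at 70.1 ± 9.95 and 94.8 ± 20.6. Summed over the 4 copies, the level was 164, 147 and 179 CPM in control and 312, 217 and 273 in dmut, without overlap. How the reads were divided among the copies is uncertain. Both calls were lost when any control library was left out (adjusted p of 0.130 to 0.240).

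The dynactin subunits had a median log2 fold of 0.19, with 5 of 6 positive and none past the threshold. Dctn3, a small subunit of the shoulder of the complex, was at 55.6, 48.9 and 48.6 CPM in control and 74.5, 58.8 and 71.9 in dmut. All dmut libraries were above all controls (means 51.0 ± 3.95 and 68.4 ± 8.44, log2 fold 0.42, SE 0.12, unadjusted p = 0.00874, edgeR adjusted p = 0.110). Its call turned on the reads and libraries used, with an edgeR adjusted p of 0.0468 on unique gene reads (0.209% of all genes called higher) and of 0.0495 without dmut replicate 2 (2.42%). Of its reads 47.5% to 66.7% were unique. Dctn5, at the pointed end of the complex, was at 43.2, 43.9 and 49.3 CPM in control and 61.1, 51.5 and 56.8 in dmut (0.31, SE 0.11, adjusted p = 0.152 by edgeR), with 38.1% to 47.2% of its reads unique.

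The larger dynactin subunits overlapped. Dctn2 was at 180, 159 and 185 CPM in control and 217, 171 and 221 in dmut (0.21, SE 0.13, adjusted p = 0.388 by edgeR). Dctn1, the p150Glued arm that binds microtubules and dynein, was at 195, 219 and 204 CPM in control and 250, 209 and 236 in dmut (0.17, SE 0.10). The pointed-end subunits Dctn6 and Dctn4 had log2 folds of 0.10 (SE 0.13) and -0.10 (SE 0.09). Dmut replicate 2 was the lowest dmut library in 5 of the 6 subunits. As log2 differences from the control mean, the dynactin medians were 0.30, -0.0065 and 0.33 in the dmut libraries in replicate order. The control libraries were at 0.02, -0.06 and 0.03. In dmut replicate 2, where the cortical markers stood high, dynactin therefore lay at the control level. The part of those cells in the values was not tested.

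Adaptors and regulators of the motors were counted as the rest of the pathway. Of 47 listed, 43 were tested, 18 with positive and 25 with negative folds (median -0.05), and 0 passed. An unadjusted p under 0.05 was reached by 7 higher and 5 lower, against 11.1% and 10.1% of all genes tested. Actr10, the actin-related protein that caps dynactin at its pointed end, was at 75.1, 75.4 and 86.8 CPM in control and 108, 101 and 97.4 in dmut (0.37, SE 0.10, edgeR adjusted p = 0.0971). Htt, a scaffold that binds dynein and kinesin complexes, was at 81.4, 89.2 and 93.5 CPM in control and 54.9, 61.6 and 58.9 in dmut (-0.59, SE 0.09, edgeR adjusted p = 0.0576). Both had groups that did not overlap.

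**Figure D4:**
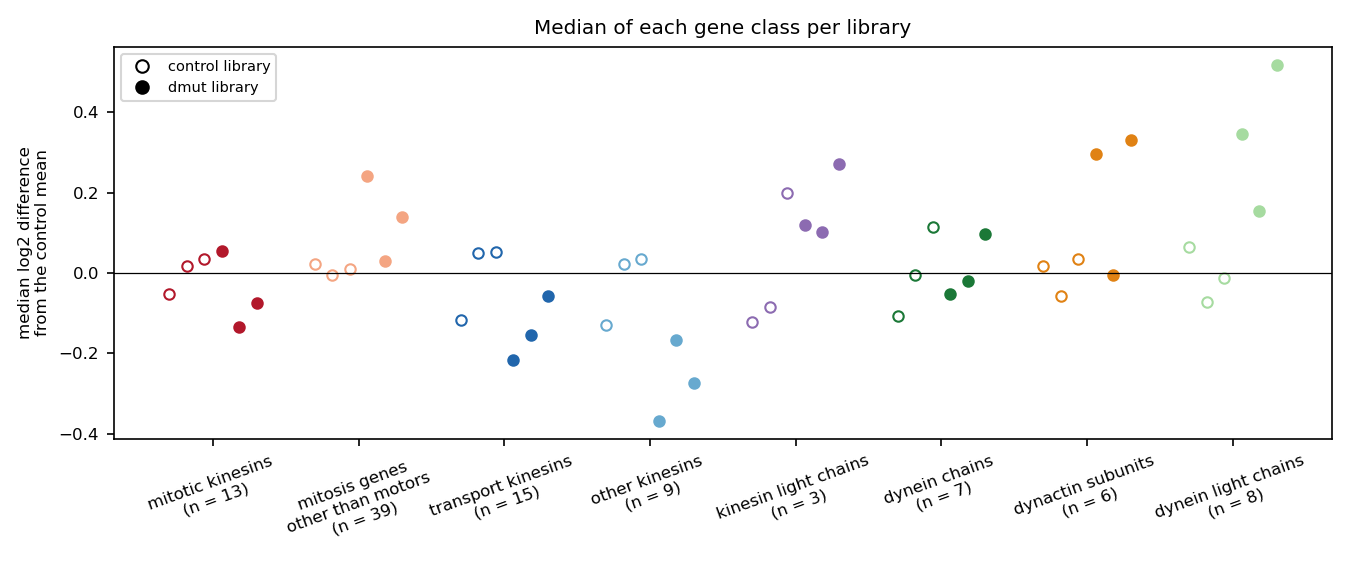
Median log2 difference from the control mean (y axis) in each library for 6 motor classes, the dynein light chains and the mitosis genes that are not motors; open symbols are control and filled symbols dmut libraries. Dynactin lies above control in dmut replicates 1 and 3 but not in replicate 2, and the other kinesins lie below control in all 3 dmut libraries.

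Set side by side, the class medians of the log2 fold were 0.19 for dynactin, 0.16 for the light chains, 0.02 for dynein, -0.02 for the mitotic, -0.19 for the transport and -0.25 for the other kinesins. The median was -0.02 over all genes and 0.09 over genes with at least as many reads as the median motor gene. The other kinesins stood at -0.13, 0.02 and 0.04 in the control libraries and -0.37, -0.17 and -0.27 in dmut, so their groups did not overlap. The transport kinesins stood at -0.12, 0.05 and 0.05 in control and -0.22, -0.15 and -0.06 in dmut, and control replicate 1 lay inside the dmut range. These lists are short and were chosen with earlier results known, so their medians are descriptions.

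Exon length moved with the folds of all genes. The median log2 fold was 0.27 over genes with under 2000 bases of exons and -0.17 over those with 12000 or more. The motor genes in the same ranges had medians of 0.22 (2 genes) and -0.13 (6 genes). Their median exon length was 6393 bases, against 4270 over all genes tested. Dctn3 has 1042 bases and Dync2h1 16348. Over the dynein light chains tested the median was 3181.5 bases, with 771 for Dynlt1b and 3890 for Dynll1. With each library's trend on exon length removed, the log2 fold of Dctn3 was 0.06 and that of Dync2h1 -0.21. Kif3c, with 7406 bases, went from 0.20 to 0.29. The class medians became 0.14 for dynactin, -0.08 for the transport and -0.17 for the other kinesins. Of the 11 motor genes with an unadjusted p under 0.05, 3 stayed under it: Dync2h1, Kif13a and Kif3c. The part of exon length in each fold beyond this trend was not tested, nor was its part in the folds of the dynein light chains.

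**Figure D5:**
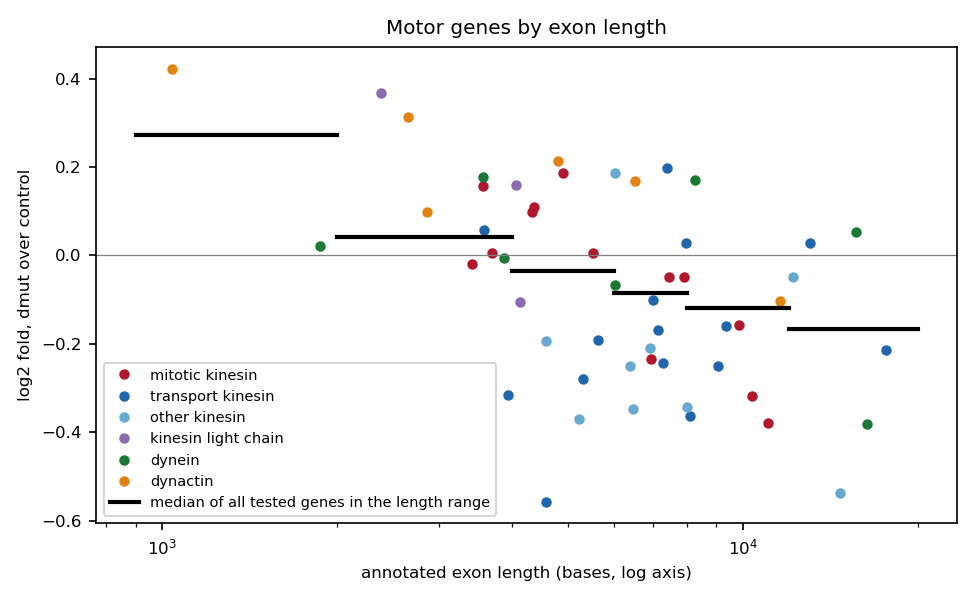
Log2 fold of dmut over control (y axis) against exon length in bases (x axis, log scale) for the 53 motor genes, coloured by role; black bars are the medians of all genes tested in each length range. The bars descend from 0.27 to -0.17, and the short Dctn3 and the long Dync2h1 lie on either side of 0.

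The label dates were used to group the libraries, although the labels do not say what was done on them. All 11 of these genes have groups that do not overlap, so the sign of a difference within a date is fixed by that and only its size is given. Values are for 29 March (control replicate 2 with dmut replicates 1 and 2) and then 4 May (replicate 3 of each group). The log2 difference was -0.50 and -0.32 for Dync2h1, -0.38 and -0.49 for Kif13a, 0.44 and 0.56 for Dctn3, and 0.19 and 0.22 for Kif3c. The date 23 March holds control replicate 1 alone and gives no difference. In the authors' deposited table, 0 of the 53 motor genes had a p-value under 0.05, against 3.83% of all genes in it, and the lowest was 0.0640 for Dctn3. In the authors' deposited table all 53 had an adjusted p-value of 1, and 0.871% of its genes had one under 0.05.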

How the data were processed

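The authors deposited 1 table of the 6 libraries with total gene reads and unique gene reads as whole-number counts and RPKM values, per the file headers. Unique reads match no other place. No total count lay between 1 and 9, so a listed 0 stands for at most 9 reads. A p-value and a signed fold change per gene, the latter kept here as a score, came from the authors' own test, named EDGE with tagwise dispersions per the file headers. Per the submitters' processing notes the build was GRCm38 (mm10), and the aligner and counter were not given in the sources used here. Exon lengths came from GENCODE M21 and promoters from RefSeq.

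Total gene reads were tested with the quasi-likelihood test of edgeR 4.0.16 in R 4.3.3, two-sided, after TMM scaling and filterByExpr. P-values were Benjamini-Hochberg adjusted over 15960 genes at a threshold of 0.05. Folds are dmut over control. The standard error is the log2 fold divided by the root of F. List medians per library used log2(CPM + 0.1). Named genes were, in each class, the 3 of lowest p and the 2 of highest RPKM, and in the related lists those past the threshold or else the 2 of lowest p. Other motor genes named as examples were chosen after their values were seen. The members and lists were chosen with earlier results of these data known. Alternatives were other scalings and filters, DESeq2 1.42.0, limma-voom (limma 3.58.1), unique reads, limma on log2(RPKM + 1), replicate and date blocks, exon length trend removal, each library left out, a threshold of 0.1 and other read minima. The steps were tested on simulated data. To look for a library deposited again under another name, pairs within a group were compared with counting noise, and none matched (26.3 to 151 in chi-square divided by its degrees of freedom). The labels make each library a biological replicate. Totals ran from 26766556 to 34612095 reads per library. Intervals cover the fitted spread between libraries.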

Additional observations from a re-analysis of the deposited data

How the results depend on the processing

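No motor gene was called by edgeR, by limma-voom, with relative log expression factors, without the count filter or with a mean of 50 reads as filter. Calls higher in dmut numbered 2 by DESeq2, 1 on unique gene reads and 0 to 1 with a library left out. Calls lower numbered 6 with library size alone (Dync2h1, Kif13a, Kif14, Kif1c, Kif24 and Kif2a, beside 4.56% of all genes), 2 by DESeq2 and 1 at an adjusted p of 0.1. Library size alone moved the median of all genes to -0.23. It gave medians of -0.25 for all motor genes, -0.22 for mitotic, -0.40 for transport and -0.45 for other kinesins, -0.039 for light chains, -0.18 for dynein and -0.010 for dynactin. On log2(RPKM + 1), where the median of all genes was -0.10, these were -0.21 for all, -0.16 for mitotic, -0.29 for transport and -0.36 for other kinesins, -0.14 for dynein and 0.025 for dynactin. With the exon length trend removed the transport median was -0.081. Leaving out each library gave -0.13 to -0.036 for all motor genes, -0.088 to 0.099 for mitotic, -0.22 to -0.072 for transport and -0.060 to 0.12 for dynein. Log2 folds that turned sign with library size alone were Kif22 -0.012, Kif3c -0.0052, Klc1 -0.039, Dync1i2 -0.032, Dync1i1 -0.016 and Dync1h1 -0.14. On RPKM they were Kif3c -0.0030, Dync1i1 -0.013 and Dync1h1 -0.14. With the length trend removed they were Kif11 0.050 and Kif21b 0.097, with the date as a block Dync1h1 -0.058, and on unique reads Dync1li1 0.0098. With a library left out, the ranges that crossed 0 were -0.32 to 0.0031 for Kif5c, -0.15 to 0.099 for Kif21b, -0.0065 to 0.27 for Dync1i1, -0.094 to 0.19 for Dync1h1 and -0.066 to 0.056 for Dync1li1. The causes were not tested beyond the construction of each alternative.

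Replicate numbers are shared between the groups, but same-numbered libraries deviated together only weakly (correlations 0.110, 0.123 and 0.015), so they were not treated as pairs. With the replicate number as a block, 0 motor genes were called, beside 227 of all genes against 77 without it. Under a block on the label date no gene of any kind passed in edgeR, and 6 motor genes had an unadjusted p under 0.05. Rac3 lost its call under limma-voom, under the date block and without any control library or dmut replicate 3. The intervals of Kif17, Kif6, Kifc2 and Kif26b reach beyond 2-fold, from means of 55.0, 96.2, 159 and 248 reads. That of Kif27, from 128 reads, does not, so depth alone does not order them.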
